A study of Mus musculus with 6 samples.

Results

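The genes described here encode parts of the motile cilium and of its core, the axoneme, and were measured in thyroid lobes of mice with and without Foxe1. They were taken by name from the array's gene annotation: every symbol beginning Cfap, Dnah, Dnai, Dnal, Rsph or Tekt, every Ift symbol followed by a number, and Tppp3, Dynlrb2, Hydin, Spag6, Spag16 and Spag17. This gave 76 genes of the 19505 with a symbol, on 18 chromosomes. A gene with several probe sets was to be represented by the 1 chosen by its brightness, the mean log2 value over all arrays, but each of the 76 had a single probe set, so that no measured value decided which was used. Another 10 protein-coding genes that fit these names in RefSeq, among them Dnah12, Cfap54 and Tekt5, were not analysed here.

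A motile cilium beats because dynein motors slide its outer microtubule doublets past each other. Outer and inner dynein arms sit on each doublet, radial spokes reach from the doublets to a central pair of microtubules, and the projections of that pair help to set the beat. Intraflagellar transport (Ift) proteins carry building material along the shaft, and they serve the immotile primary cilium too, which thyroid follicular cells and most other cells can form. Bundles of motile cilia are a feature of the epithelium of the trachea, on which the thyroid lies, and a single motile flagellum drives the sperm cell.

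Foxe1 is a forkhead transcription factor of thyroid follicular cells, and the study compared adult thyroids after its induced deletion with thyroids of control animals. There were 3 Foxe1flox/flox/Cre mice, called knockouts below, and 3 mice labelled Cre control. All 6 had a C57BL/6J background, were given tamoxifen at 0.05 g/kg on 5 days in a row from an age of 6 to 8 weeks, and gave their thyroid 2 weeks later, so that controls share both the drug and Cre with the knockouts. A single lobe of each animal went on its own array. The sources used here do not give the promoter that drives Cre or the sex of the animals. Values are log2 readings per probe set, and differences are knockout minus control on that scale, so that 1 unit is a doubling of signal. A probe set's level cannot be set against that of another gene.

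Foxe1 itself, the check of the labels, had control values of 7.60, 7.19 and 7.04 and knockout values of 3.33, 2.88 and 3.04, a difference of -4.19 (limma adjusted p = 0.000442). Lobes of both groups held thyroid, airway and muscle transcripts: Tg read at least 18.67, Bpifa1, a secreted airway protein, at least 18.07 and Acta1, skeletal muscle actin, at least 19.64 on every array. Transcripts of 3 Y-linked genes averaged 3.04 on control 1 and 2.65 on knockout 3, and between 8.03 and 8.30 on the other 4 arrays. Over all 22206 probe sets 75 passed an adjusted p of 0.05, which is 0.338% of them, with 0.252% higher and 0.0856% lower in the knockout. With 3 arrays in each group, this number limits the precision of every value below.

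Most cilium genes read lower in the knockout lobes, mostly by amounts that did not pass the test, and 1 of each direction passed it. Of the 76, 61 had a negative difference (80.3%, against 53.2% of all probe sets), and their median was -0.40 against -0.02 over all probe sets. Among the 76, only Dnaic1, which encodes an intermediate chain of the outer dynein arm, fell past the threshold, and only Dnah11, an outer-arm heavy chain, rose past it. In 22 of the 76, or 28.9%, all 3 knockouts lay below all 3 controls, as they did in 8.78% of all probe sets. In 3, or 3.95%, namely Dnah11, Rsph9 and Ift20, they lay above, a smaller share than the 9.28% of all probe sets. An unadjusted p under 0.05 was found for 23 lower and 2 higher genes of the 76, against 6.13% and 6.61% of all probe sets. In size, 34 were lower by at least 0.5, as were 8.66% of all probe sets, 4 (5.26%) were higher by at least 0.5, against 8.03% of all probe sets, and 38 lay between.

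The 62 genes without the Ift family had a median of -0.47. In 19 of them (30.6%) all knockouts lay below all controls, against 8.78% of all probe sets. No filter on low values was used: 67 of the 76 had a mean above the lower quartile of probe sets and 42 a mean above the median. Dnah17, Rsph6a and Cfap221 lay below the lower quartile of every array.

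**Figure D1:**
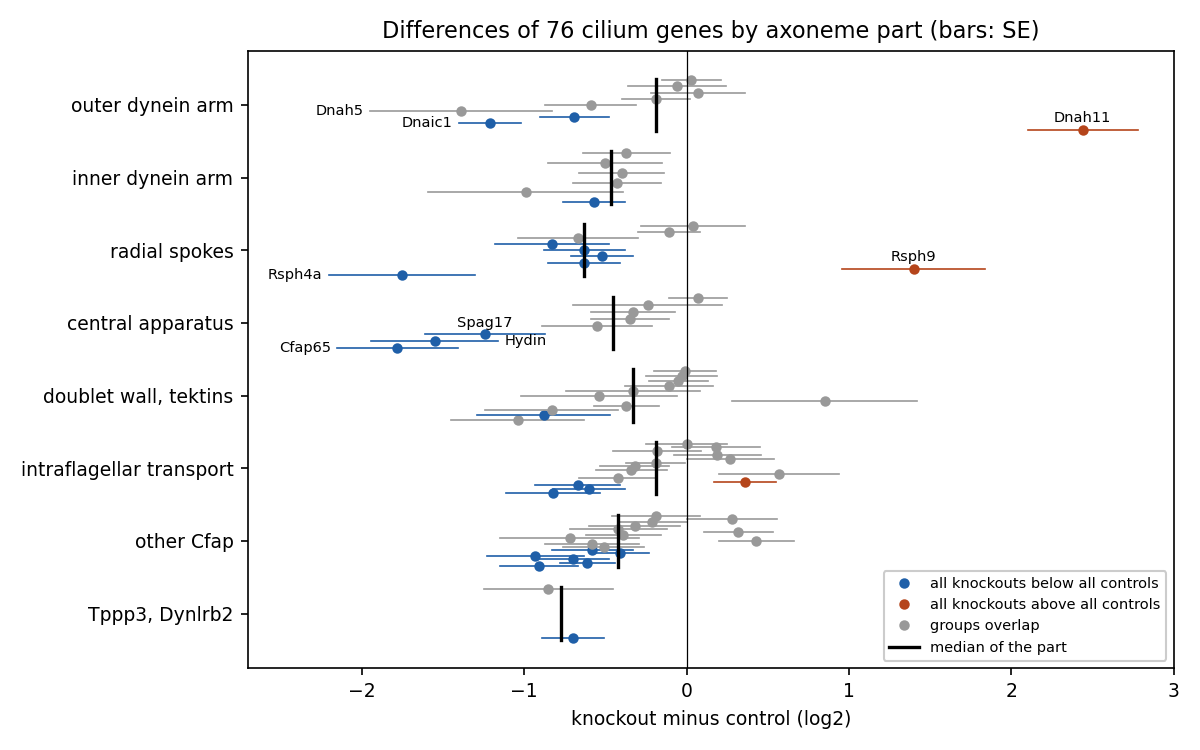
Difference between knockout and control (x axis, log2) for each of the 76 genes, in 8 rows by place in the axoneme, with bars for the standard error and a black line at each row's median. Every row's median lies left of 0, from -0.77 to -0.19, while Dnah11 at 2.44 and Rsph9 at 1.40 lie farthest to the right.

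Promoter sequence is a feature that the choice by name did not use. RFX factors bind the X-box, which many cilium genes carry. In the main spelling searched here, its arms read GTTNCC and, 2 bases on, GGNAAC. In RefSeq promoters (build GRCm38.p6, 250 bases before to 50 after the start) 64 of the 76 genes had an entry, with 71 windows. Both strands were searched for 12 spellings of X-box and forkhead motifs, some of them nested in others. This spelling with both arms was in 2 of the 71 windows (2.82%, against 0.451% of all 32851 windows), those of Cfap298 and Cfap20dc. Boxes with another gap were not searched for, nor were all looser arms, so other genes may carry an X-box. Ift57, for example, had GTTGCC at -60 to -55 and GGTAAC at -53 to -48 from its start. A single arm spelled GTTGCC was in 28 (39.4%, against 12.5%), and the looser arm GTTNCC, which includes it, in 54 (76.1%, against 45.3%). The forkhead core TGTTTAC was in 4 (5.63%, against 3.65%). By the arrays, GTTGCC was found for 6 of the 14 genes with an entry whose knockouts all lay below the controls, for 20 of the 47 with overlapping groups and for 0 of the 3 whose knockouts all lay above. The looser arm was found for 12 of the 14, 37 of the 47 and 2 of the 3, the last being Rsph9 and Ift20. By sign, it was found for 43 of 51 genes with a negative and 8 of 13 with a positive difference. Cfap65, Rsph4a and 10 other genes had no entry. Windows were not matched for base composition, and a match is only a description of these letters.

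The stretches printed here are 60 bases each, on the gene's strand and upstream of its start. Both X-boxes of the 2-base spelling are shown, and an arm in each of 5 genes whose knockouts all read below the controls. The bases just before the start of Dnah11, the gene that rose, and of Tekt1, with a positive difference and 2 arms, follow. These stretches were picked after the values were seen, and the counts above, not this choice, give the share with an arm. Bases beside a single marked arm were not searched for a second arm of looser spelling. Capitals mark the X-box or its arm, read on either strand.
Cfap298 (chr16:90935001-90935060, minus strand): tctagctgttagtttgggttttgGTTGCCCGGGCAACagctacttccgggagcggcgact
Cfap20dc (chr14:8666356-8666415, minus strand): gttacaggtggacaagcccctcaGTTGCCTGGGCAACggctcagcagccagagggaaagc
Hydin (chr8:110266917-110266976, plus strand): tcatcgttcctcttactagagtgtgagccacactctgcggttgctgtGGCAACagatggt
Dnaic2 (chr11:114727359-114727418, plus strand): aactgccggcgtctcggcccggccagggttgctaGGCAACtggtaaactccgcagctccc
Dnah7a (chr1:53706952-53707011, minus strand): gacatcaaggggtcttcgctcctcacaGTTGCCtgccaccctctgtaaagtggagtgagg
Cfap58 (chr19:47937626-47937685, plus strand): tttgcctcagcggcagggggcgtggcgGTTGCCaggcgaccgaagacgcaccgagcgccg
Dnaic1 (chr4:41569734-41569793, plus strand): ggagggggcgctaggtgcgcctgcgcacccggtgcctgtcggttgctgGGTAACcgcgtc
Dnah11 (chr12:118199044-118199103, minus strand): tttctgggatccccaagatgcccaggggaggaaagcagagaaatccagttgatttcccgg
Tekt1 (chr11:72361883-72361942, minus strand): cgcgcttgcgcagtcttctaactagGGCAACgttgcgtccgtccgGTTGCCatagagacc
The marked arm begins 13 bases before the start in Hydin, 26 in Dnaic2 and 12 in Dnaic1, where it has the looser spelling. The whole Dnah11 window held neither arm nor the forkhead core.

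In the outer dynein arm, the motor that gives the beat its power, 9 genes were measured, and the 2 that passed the threshold went in opposite directions. Dnah11 encodes a heavy chain of the arms near the base of the airway cilium. Dnah11 had control values of 7.62, 6.70 and 6.14 and knockout values of 9.24, 9.08 and 9.47. The groups were far apart and the knockouts close together, with means of 6.82 ± 0.75 and 9.26 ± 0.20 (SD, n = 3 each). The rise was 2.44 (SE 0.34, limma adjusted p = 0.0324), or 5.44-fold. It passed without control 1 (adjusted p = 0.0205) and missed the threshold with any other array left out (0.0744 to 0.129).

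The gene body of Dnah11 overlaps that of its neighbour Cdca7l in RefSeq. Cdca7l, a nuclear partner of Myc, has its own probe set and was looked up after the value of Dnah11 was seen. Cdca7l had control values of 9.16, 9.47 and 9.24 and knockout values of 11.34, 10.44 and 10.92. Its knockouts too lay above all controls, and it rose by 1.61 (limma adjusted p = 0.0446, and 0.0558 to 0.141 with any 1 array left out). The sources used here do not say where the probes of either set lie, so whether the Dnah11 reading includes Cdca7l transcripts was not tested.

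Dnaic1, now also called Dnai1, had control values of 6.69, 6.49 and 6.28 and knockout values of 5.32, 5.16 and 5.34. Both groups were tight and did not overlap, at 6.49 ± 0.21 against 5.27 ± 0.10 (SD, n = 3 each). It fell by 1.21 (SE 0.19, limma adjusted p = 0.0445), a 2.32-fold difference. With any 1 array left out the difference was between -1.32 and -1.11, and the adjusted p, at 0.0961 to 0.148, missed the threshold each time. Enho, whose gene body overlaps Dnaic1, differed by -0.17 with overlapping groups.

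Dnaic2, the other intermediate chain of the outer arm, had control values of 5.35, 4.80 and 4.81 and knockout values of 4.37, 4.37 and 4.14. All its knockouts were lower, but the difference of -0.69 did not pass (adjusted p = 0.214). Dnah5, the heavy chain found along the whole outer arm row, had control values of 8.49, 5.86 and 6.87 and knockout values of 6.02, 5.53 and 5.49. Control 1 stood far above the rest and knockout 1 lay above control 2, so the groups overlapped. The Dnah5 difference was -1.39 with all arrays (adjusted p = 0.339) and -0.68 without control 1. Dnah9, the heavy chain of the outer part of the airway cilium, differed by -0.59 with overlapping groups. The light chain genes Dnal1 (0.07) and Dnal4 (-0.19) and the sperm heavy chain genes Dnah8 (-0.06) and Dnah17 (0.03) all differed by less than 0.5.

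**Figure D2:**
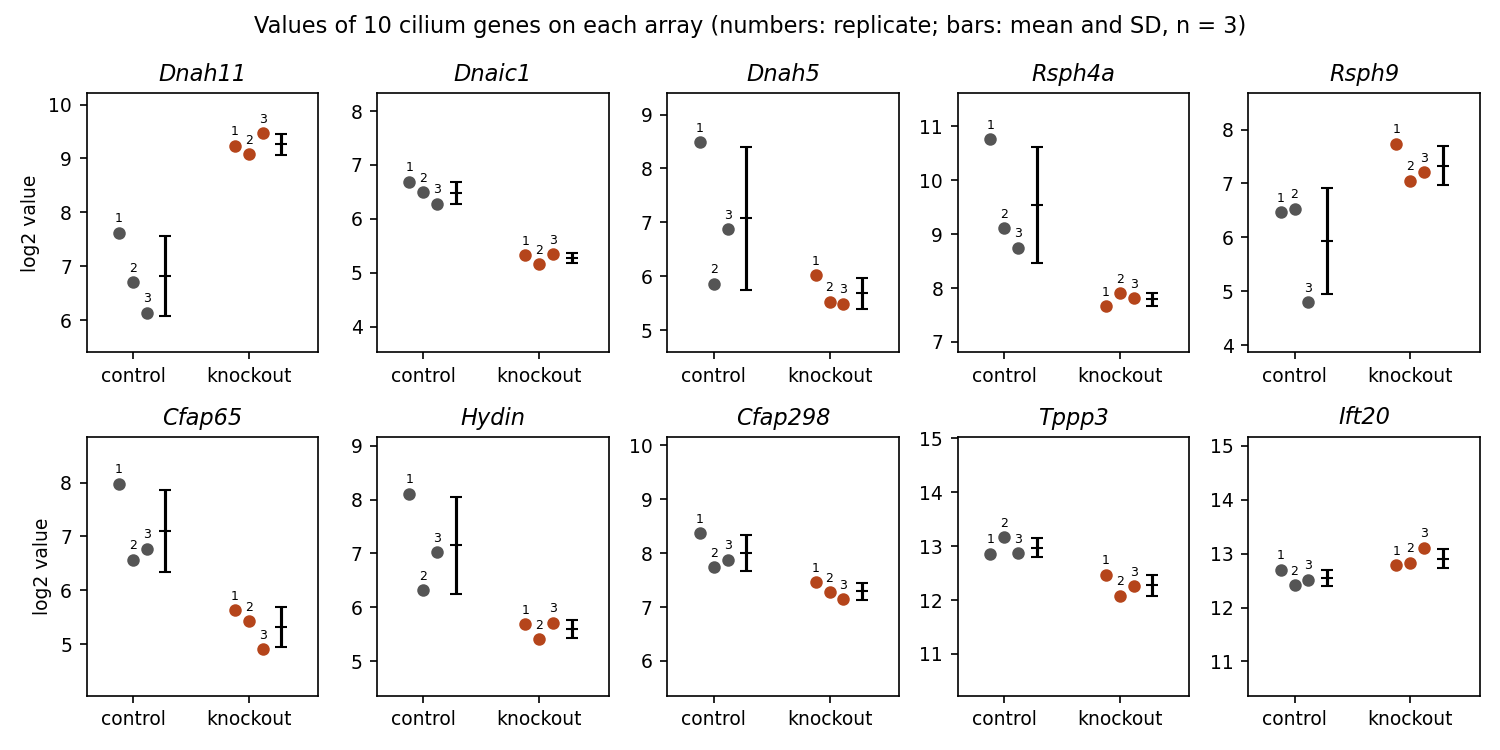
Log2 values (y axis, a span of equal height in each panel) of 10 cilium genes on each of the 3 control and 3 knockout arrays, numbered by replicate, with mean and SD beside each group. Dnah11, Rsph9 and Ift20 have all knockouts above all controls, Dnah5 overlaps because control 2 reads 5.86, and the other 6 have all knockouts below all controls.

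All 6 inner arm genes, whose motors shape the bend of the cilium, had negative differences, from -0.99 to -0.37, and none passed. Dnah7a, an inner-arm heavy chain, was the only 1 of the 6 with all knockouts below all controls (16.7%, against 8.78% of all probe sets). Dnah7a had control values of 4.56, 4.78 and 4.88 and knockout values of 3.96, 4.23 and 4.33, with a difference of -0.57 (adjusted p = 0.259). Dnah6, another heavy chain, had control values of 8.35, 5.94 and 6.36 and knockout values of 6.15, 6.44 and 5.10. Control 1 alone was high, and the Dnah6 difference went from -0.99 to -0.25 without it. Dnali1, an inner-arm light intermediate chain, differed by -0.40, Dnah10 by -0.50, Dnah1 by -0.43 and Dnah2 by -0.37, all with overlapping groups.

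Of the 9 genes of the radial spokes, 5 (55.6%) had all knockouts below all controls, against 8.78% of all probe sets. The median of the 9 was -0.63. Rsph4a, a protein of the spoke head, had control values of 10.76, 9.11 and 8.75 and knockout values of 7.66, 7.90 and 7.81. The knockouts were nearly equal, and the lowest control was still above them. The Rsph4a difference was -1.75 (SE 0.45, adjusted p = 0.153), a 3.36-fold lower mean, and -1.14 without control 1. Rsph9, another head protein, went the other way. Rsph9 had control values of 6.47, 6.53 and 4.80 and knockout values of 7.74, 7.05 and 7.21, with a difference of 1.40 (SE 0.44, adjusted p = 0.226). Control 3 was its low reading, and the difference was 0.83 without it. Mrps18a, whose gene body overlaps Rsph9, differed by 0.07.

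Rsph14 (-0.63), Rsph3a (-0.52), Rsph1 (-0.63) and Cfap61 (-0.83) also had all knockouts below all controls, with adjusted p between 0.26 and 0.365. Rsph3a encodes a stalk protein of the spoke, Rsph1 a head protein and Cfap61 a protein at the spoke's base. Cfap206, also of the spoke base, had control values of 9.39, 7.70 and 8.51 and knockout values of 7.84, 7.88 and 7.86. The knockouts lay within the span of the controls, and the difference was -0.67 (adjusted p = 0.499), or -0.24 without control 1. Rsph3b (0.04) and Rsph6a (-0.11), a sperm form of the head protein, had overlapping groups.

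Of the 8 genes of the central apparatus, 7 had negative differences, and none passed the threshold. In 3 of the 8 (37.5%) all knockouts lay below all controls, against 8.78% of all probe sets. Cfap65 had control values of 7.98, 6.57 and 6.77 and knockout values of 5.63, 5.43 and 4.91. Its difference was the lowest of the 76, at -1.78 (SE 0.37, adjusted p = 0.0969), which is a 3.44-fold lower mean. Hydin encodes a giant protein of a central pair projection, named for the hydrocephalus of mice that lack it. Hydin had control values of 8.11, 6.32 and 7.02 and knockout values of 5.69, 5.41 and 5.71, with a difference of -1.55 (SE 0.39, adjusted p = 0.15). Control 1 was the highest array for both genes, and without it the differences were -1.35 for Cfap65 and -1.07 for Hydin.

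Spag17, a large protein of another central pair projection, had control values of 3.77, 5.22 and 3.76 and knockout values of 2.84, 3.07 and 3.11. Control 2 was its high reading and all knockouts were below the controls. The Spag17 difference was -1.24 with all arrays (adjusted p = 0.203) and -0.76 without control 2. Cfap69 (-0.55), Spag6 (-0.35), Cfap74 (-0.33), Spag16 (-0.24) and Cfap221 (0.07) had overlapping groups.

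Genes of the doublet wall, among them the tektins that form filaments in it, numbered 11, of which 10 had negative differences, with a median of -0.33. Cfap126, which helps to dock and position basal bodies, was the 1 gene of them with separate groups. The share of the 11 with all knockouts below all controls was thus 9.09%, near the 8.78% of all probe sets. Cfap126 had control values of 10.92, 9.20 and 9.37 and knockout values of 8.98, 8.94 and 8.93, with a difference of -0.88 (adjusted p = 0.413). That difference was -0.34 without control 1. Cfap52, a protein of the doublet's inner wall, differed by -0.54 with all arrays and by 0.10 without control 1, and the median of the 11 was 0.00 without that array. Cfap161 differed by -1.04, Cfap53 by -0.83, Cfap45 by -0.33, Cfap20 by -0.05 and Cfap77 by -0.01, all with overlapping groups. Tekt1 had control values of 6.57, 5.26 and 5.15 and knockout values of 6.63, 5.29 and 7.61. Its knockouts spread widely around a difference of 0.85 (adjusted p = 0.597), and Tekt2, Tekt3 and Tekt4 differed by -0.37, -0.03 and -0.11.

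The 14 Ift genes, needed for primary and motile cilia alike, had 9 negative and 5 positive differences and a median of -0.19, with none past the threshold. Ift74 and Ift81, which together bind tubulin as cargo, and Ift80, a further member of transport complex B, had all knockouts below all controls. These genes are 21.4% of the 14, against 8.78% of all probe sets. Ift81 had control values of 8.28, 7.56 and 7.87 and knockout values of 6.52, 7.27 and 7.45, with a difference of -0.82 (adjusted p = 0.277). Ift74 differed by -0.67 (adjusted p = 0.326) and Ift80 by -0.60 (adjusted p = 0.298). Ift20, whose protein is also found at the Golgi, had control values of 12.70, 12.42 and 12.52 and knockout values of 12.79, 12.83 and 13.11. All its knockouts were higher, by a difference of 0.36 that did not pass (adjusted p = 0.47).

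The 11 measured members of complex B had a median of -0.32, and those not yet named ran from -0.42 in Ift27 to 0.19 in Ift46. The 3 members of complex A, which carries cargo back to the base, were Ift122 (0.57), Ift140 (0.27) and Ift43 (-0.00). None of these had separate groups.

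Of the 17 other Cfap genes, 14 had negative differences. In 6 of the 17 (35.3%) all knockouts lay below all controls, against 8.78% of all probe sets, and the other groups overlapped. Cfap298, needed to assemble dynein arms in the cytoplasm, had control values of 8.37, 7.74 and 7.88 and knockout values of 7.46, 7.28 and 7.14, with a difference of -0.70 (adjusted p = 0.22). Cfap20dc had control values of 7.79, 7.14 and 6.97 and knockout values of 6.26, 6.42 and 6.48, with a difference of -0.91 (adjusted p = 0.16). These are the genes in which the main X-box spelling searched was found with both arms, and control 1 was the highest array for both. Cfap58, a gene of the sperm flagellum, had control values of 4.29, 4.29 and 4.23 and knockout values of 3.77, 3.72 and 3.50, with a difference of -0.61 (adjusted p = 0.188). Cfap299 (-0.93), Cfap410 (-0.41) and Cfap73 (-0.58) were the other 3 separated genes. Cfap43 and Cfap44, which tether an inner arm to its doublet, differed by -0.72 and -0.39 with overlapping groups, and by -0.15 and -0.16 without control 1. Cfap97 (0.43), Cfap36 (0.32) and Cfap57 (0.28) were the 3 positive ones, and the other 6 ran from -0.58 in Cfap70 to -0.19 in Cfap300 with overlapping groups.

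Tppp3, which promotes tubulin polymerisation and marks ciliated airway cells, had control values of 12.86, 13.17 and 12.87 and knockout values of 12.47, 12.08 and 12.26. Its groups were tight and separate, with a difference of -0.70 (SE 0.19, adjusted p = 0.177), and of -0.75 without control 1. Dynlrb2, a light chain of cytoplasmic dynein abundant in ciliated cells, had control values of 8.63, 7.21 and 7.40 and knockout values of 6.28, 7.16 and 7.26. Knockout 3 lay between control 2 and control 3, and the difference was -0.85 (adjusted p = 0.428), or -0.40 without control 1.

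**Figure D3:**
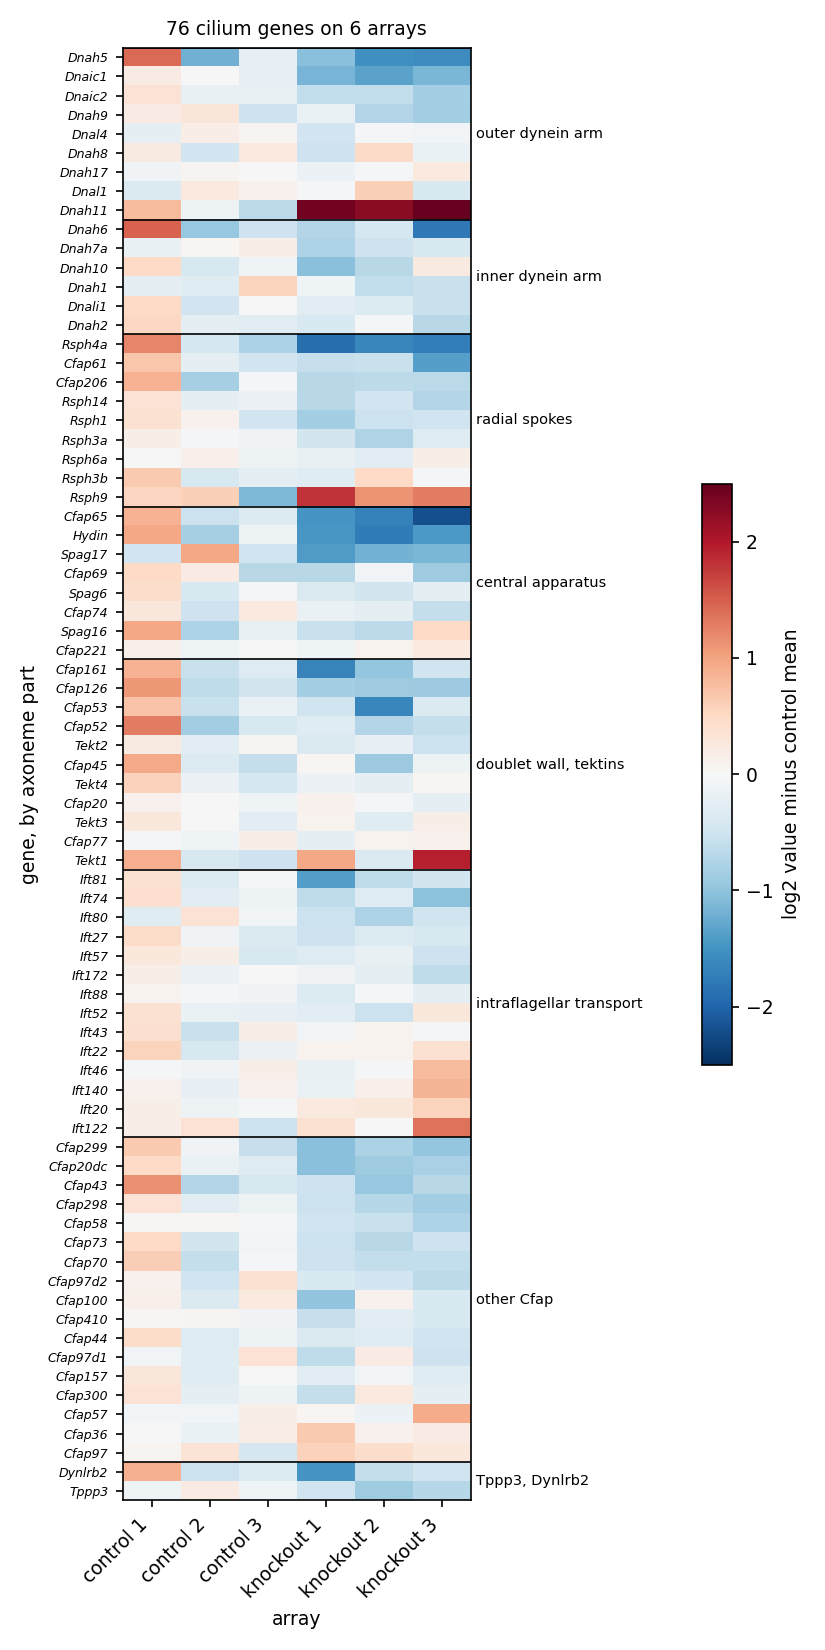
Log2 value minus the gene's control mean (colour, red higher and blue lower) for the 76 genes (rows, by axoneme part) on the 6 arrays (columns). Control 1 is the reddest control column, with the highest reading of all 6 arrays for 47 genes, and Dnah11 and Rsph9 are red in all 3 knockouts.

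Control 1 stood apart from the other controls for these genes. It was the highest control for 52 of the 76, against 35.1% of all probe sets, and the highest of all 6 arrays for 47, against 20.3%. Against each gene's control mean, the median of the 76 was 0.37 on control 1, -0.23 on control 2 and -0.12 on control 3. On knockouts 1, 2 and 3 it was -0.47, -0.36 and -0.47, so that the knockouts lay close together and below each control. Without control 1 the median difference was -0.24, 54 of the 76 were negative, and 23 had all knockouts below both other controls, as had 14.1% of all probe sets. Of the 61 genes with a negative difference, 33 moved toward or past 0 by over 1.5 times when control 1 was left out, and 2 moved away from it by as much. By part, the medians without control 1 were -0.31 for outer arms, -0.25 for inner arms, -0.44 for spokes, -0.25 for the central apparatus, -0.07 for Ift genes and -0.33 for other Cfap genes. Without control 1 and knockout 3, the 2 arrays that lacked Y-linked signal, the median of the 76 was -0.20. In that setting the remaining knockouts lay below the remaining controls in 29 of the 76 (38.2%), against 20.8% of all probe sets.

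**Figure D4:**
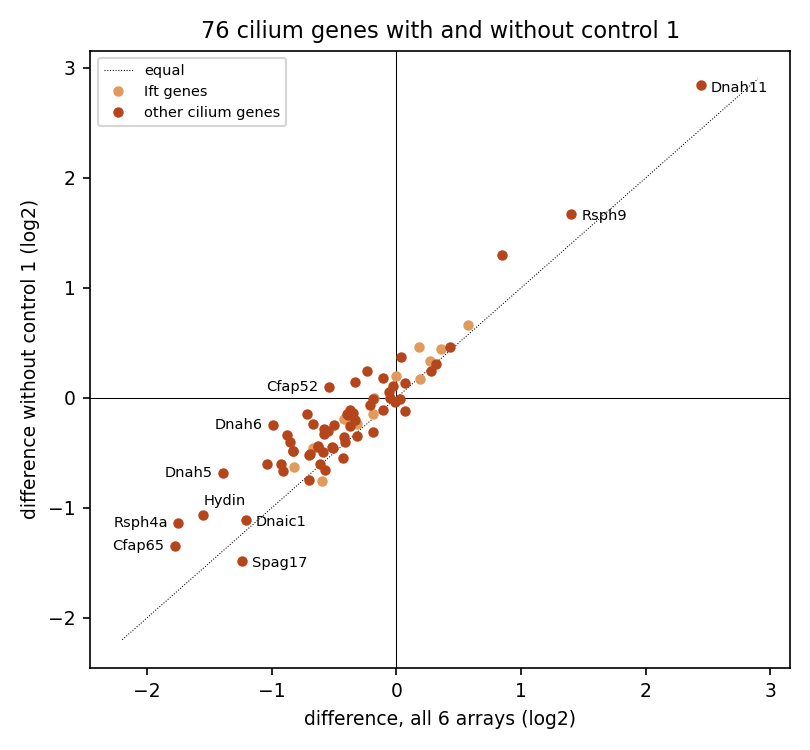
Difference of each of the 76 genes without control 1 (y axis, log2) against its difference with all 6 arrays (x axis, log2), with the dotted line where both are equal. Dnah5 goes from -1.39 to -0.68 and Dnah6 from -0.99 to -0.25, while Dnaic1, at -1.21 and -1.11, lies near the line and Spag17, at -1.24 and -1.48, below it.

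Other genes of the ciliated cell, from lists that do not overlap the 76, were also mostly lower, and none passed the threshold. Genes listed as regulators of the ciliated cell programme had negative differences in 9 of 11 (median -0.15). Mcidas (-0.06, below the lower quartile of every array), Ccno (-0.12), Trp73 (-0.11) and Ankrd66 (-0.15) differed little. Foxn4 (0.05) and Myb (0.25) were positive. Rfx2 (-0.74) and Gmnc (-0.32) were lower with overlapping groups, and Deup1 (-0.37) had all knockouts below all controls. Without the arrays lacking Y-linked signal Rfx2 differed by -0.21, Gmnc by -0.10 and Deup1 by -0.19. The 2 lowest of the list were Rfx3 and Cdhr3. Rfx3, a factor that switches on cilium genes, differed by -1.0 with overlapping groups, and by -0.20 without the arrays lacking Y-linked signal. Cdhr3, a cadherin of airway ciliated cells and not itself a regulator, differed by -1.37 with all knockouts below all controls, and by -0.54 without those arrays. Foxj1 was not analysed here. Dynein assembly factors were negative in 8 of 11 (median -0.44): Dnaaf3 differed by -0.69, Dnaaf1 by -1.04 and Spag1 by 0.81, with all 3 Spag1 knockouts above all controls (adjusted p = 0.14).

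Docking and nexin link genes, which hold arms and doublets in place, were negative in all 12 (median -0.40), with Tcte1 at -1.05 and Iqca at -0.86, or -0.52 and -0.42 without control 1. Of 20 further ciliated cell genes 18 were negative (median -0.55) and 6 (30.0%) had all knockouts below all controls, against 8.78% of all probe sets. Spata18, the lowest of them, had control values of 10.48, 8.92 and 9.06 and knockout values of 7.91, 7.84 and 8.01, with a difference of -1.57 (adjusted p = 0.137). Genes of the primary cilium and its membrane traffic were negative in 21 of 27 (median -0.20), with Tctn2 at -0.86, Bbs1 at -0.46 and Ttc21b at -0.65. In 7 of these 27 (25.9%) all knockouts lay below all controls, a share near the 28.9% of the 76 cilium genes. Without control 1 the list medians were -0.23 for regulators, -0.28 for assembly factors, -0.29 for docking and nexin link genes, -0.38 for the further ciliated cell genes and -0.12 for primary cilium genes.

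Markers of airway secretory cells, which line the trachea beside ciliated cells, were lower in 14 of 15 (median -1.0, and -0.71 without control 1). Of the 15, 10 (66.7%) had all knockouts below all controls, against 8.78% of all probe sets, and none passed the threshold. The list's mean log2 level was 15.14 to 15.76 in the controls and 14.25 to 14.53 in the knockouts. Muc5b, an airway mucin, had control values of 15.69, 14.97 and 14.52 and knockout values of 13.56, 14.22 and 12.95. Scgb1a1, the secretoglobin of club cells, had control values of 18.64, 17.81 and 17.94 and knockout values of 16.25, 16.68 and 17.96. Lypd2 had the smallest adjusted p of the list, 0.0563, with a difference of -1.70. Muc5ac lay below the lower quartile of every array, and control 1 was the highest array for 11 of the 15 markers. In bulk RNA, fewer cells of a type and less RNA per cell cannot be told apart, and the part of airway tissue in the cilium gene differences was not tested.

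Among the markers of other tissues none passed. Skeletal muscle markers were lower in all 15 (median -0.51, and -0.45 without control 1). In 7 of them (46.7%) all knockouts lay below all controls, against 8.78% of all probe sets. Their list means were 17.04 to 17.20 in the controls and 15.88 to 16.82 in the knockouts. Squamous epithelium markers were higher in 9 of 11 (median 0.31, and 0.24 without control 1), with means of 13.68 to 14.15 and 14.29 to 14.96. Markers of tracheal cartilage were lower in 7 of 12 (median -0.12, and -0.45 without control 1), and their mean was lowest on control 1, at 6.38, against 6.84 to 7.93 on the other 5 arrays. Col2a1, the main cartilage collagen, read between 4.00 and 4.60 in all lobes.

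Thyroid follicle markers were higher in all 9 (median 1.11, and 1.37 without control 1). Their list means were 7.71 to 9.32 in the controls and 9.93 to 10.37 in the knockouts. The differences ran from 0.04 in Tg to 4.83 in Slc5a5. In 6 of the 9 all knockouts lay above all controls, against 9.28% of all probe sets. Tg, Nkx2-1 (0.73) and Dio1 (0.86) had overlapping groups, and Slc26a4 lay below the lower quartile of every array. Markers of C cells were lower in 3 of 4 (median -0.42, means of 6.48 to 7.77 and 4.75 to 7.24), and both parathyroid markers were lower (means of 13.29 to 16.58 and 6.00 to 14.57). Sperm markers stood near the bottom of the scale: Prm1 read between 2.67 and 3.25, 7 of 10 lay below the lower quartile of every array, and 8 of 10 were lower (median -0.14). All knockouts lay below all controls in 3 of these 10 (30.0%), a share near the 28.9% of the 76 cilium genes.

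**Figure D5:**
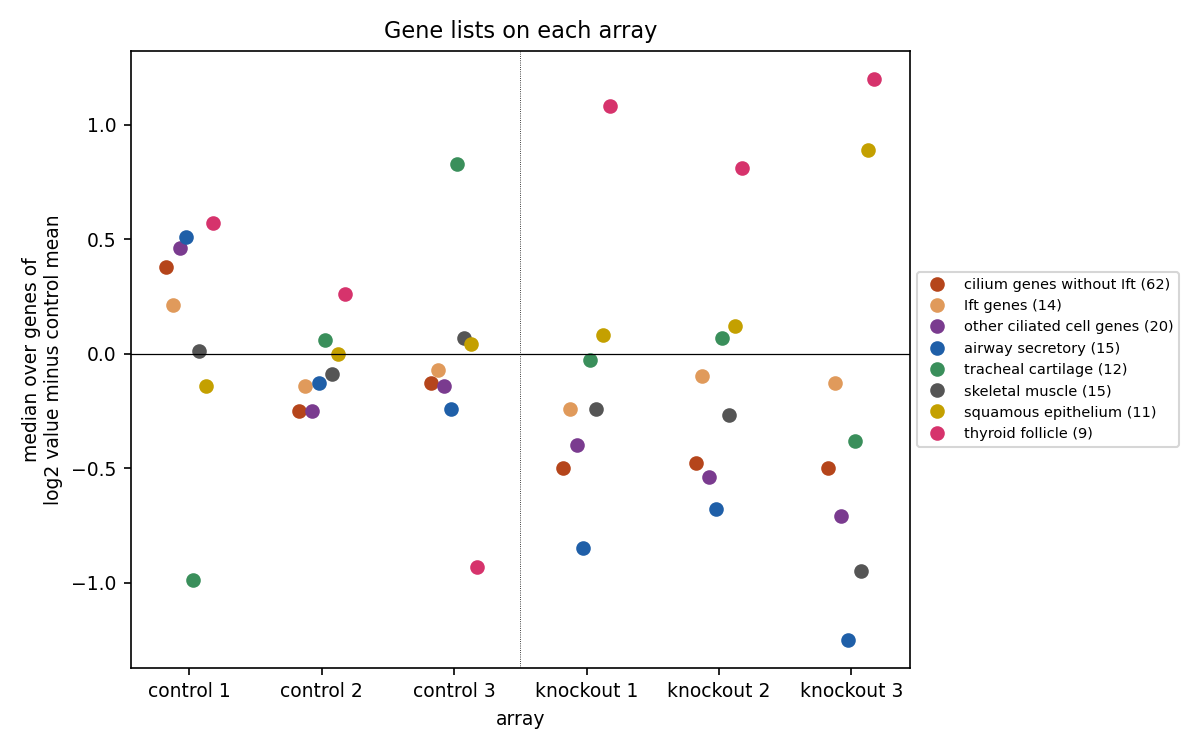
Median over the genes of each list of the log2 value minus the gene's control mean (y axis) on each array (x axis), with the number of genes in the legend. Cilium genes without Ift, other ciliated cell genes and airway secretory markers are above 0 on control 1, below 0 on controls 2 and 3, and lower still on the knockouts, while cartilage markers are lowest on control 1 at -0.99.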

How the data were processed

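The deposited values are log2 expression values. The submitters' processing notes name RMA and Affymetrix Expression Console, without versions, as the means by which the authors made them. RMA puts all arrays on a shared distribution, so a change in total RNA per lobe is not seen. Of 22206 probe sets, 19572 had 1 gene symbol in the platform annotation and 2634 had none; all 19572 matched RefSeq. The contrast was fitted in R 4.3.3 with lmFit and eBayes of limma 3.58.1 (two-sided tests, p adjusted by Benjamini-Hochberg over the whole table, threshold 0.05) and the fit was tested on simulated data, where it recovered 34% of 50 probe sets changed by 1 log2 unit and 86% of 50 changed by 2. The simulated noise was independent between probe sets, with no shift shared on an array, so these rates need not hold for the cilium genes. Figures were drawn in Python 3.11.15.

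The genes, parts and lists were chosen with earlier results of these data known. The rule for named genes took each cilium gene past the threshold, the 3 brightest and the 3 with the smallest p of each part, and up to 3 with the smallest p of each other list; remaining cilium genes are given to account for all. Control and knockout arrays with the same replicate number were not treated as pairs. Alternatives covered normalization, variance model, array weights, filters on low values, threshold, replicate block and each array left out; both settings on Y-linked signal were added after seeing the data.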

Additional observations from a re-analysis of the deposited data

How the results depend on the processing

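Over all probe sets 75 passed, against 118 with a robust variance trend, 260 at a threshold of 0.10, 0 with an ordinary t statistic (limma itself gave 2828 at an unadjusted p under 0.05), 6 without the arrays lacking Y-linked signal, and 2 to 43 with any 1 array left out. Of the 2 cilium genes past the threshold, 1 was left with either variance trend, 0 with the ordinary t statistic, 0 with the replicate number as a block and 0 without the arrays lacking Y-linked signal, and 0 to 1 with any 1 array left out. With the replicate block the adjusted p was 0.0533 for Dnah11 and 0.0757 for Dnaic1. Arrays of the same number correlated by -0.009, 0.076 and 0.017 in their deviations from the group means, so the numbers were not taken to pair the samples. The median of the 76 genes was -0.20 without the arrays lacking Y-linked signal and -0.53 to -0.24 with any 1 array left out. The central apparatus median was -1.67 over its genes above the median level. The outer arm median was -0.59 over genes above the lower quartile, -0.35 without the arrays lacking Y-linked signal and -0.34 to -0.05 with any 1 array left out. Without the arrays lacking Y-linked signal the median was -0.25 for spokes and 0.03 for the doublet wall. All knockouts lay below all controls in 14 genes above the median level, where fewer genes were counted (33.3%, against 10.5% of all probe sets at that level), and in 23 to 39 of the 76 with any 1 array left out. The 23, without control 1, are 30.3% against 14.1% of all probe sets, and the 39, without control 2, are 51.3% against 15.3%. Differences near 0 changed sign: Cfap20 was 0.01 with array weights, 0.09 without the arrays lacking Y-linked signal and -0.13 to 0.04 with any 1 array left out. Without the arrays lacking Y-linked signal Cfap52 was 0.12, Dnah2 0.05 and Dnah6 0.15. With any 1 array left out Cfap52 ran from -0.98 to 0.10, Dnal1 from -0.20 to 0.29 and Ift52 from -0.42 to 0.00. The cause of these changes was not tested. Of 494 differences of the 36 named genes under other settings 5 reversed, and of 216 with an array left out 6 did. Most of the 494 could not reverse. Variance model, test statistic, threshold, filters, replicate block and Y-linked covariate leave a gene's difference as it was. The share of reversals among the 494 is therefore no measure of stability. Signal near background limits Dnah17, Rsph6a and Cfap221.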
